A study of Mus musculus with 8 samples.

Results

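Solute carriers are membrane proteins that move sugars, peptides, amino acids, ions, vitamins and lipids across cell membranes. In the small intestine, carriers of the brush border, the membrane that faces the gut lumen, take up nutrients, mostly with sodium or protons, and others release them on the side of the blood. Carriers of inner membranes load secretory vesicles with metals and bring nucleotide sugars into the Golgi apparatus. The genes described here are the 153 protein-coding genes of the deposited table whose symbol starts with Slc and whose mean level over the 8 libraries was at least 10 CPM (values scaled to a common library total). The mitochondrial Slc25 carriers, the nucleoside carriers Slc28 and Slc29, Slc12a2 and Slc18a1 were left out, which removed 56 of 385 such symbols, and 176 of the remaining 329 lay under the level. Just inside the limit were Slc35e3 at 10.2 CPM and Slc30a1 at 10.3 CPM, and just outside it Slc26a11 at 9.4 CPM and Slc6a8 at 9.28 CPM. Members were thus chosen by their mean level over both groups, with earlier results of these data known. Such a mean can be reached through either group alone, so the choice was not independent of the difference between the groups. The prefix also takes in 4 organic anion carriers named Slco and 3 genes that encode no transporter, namely the scaffold Slc9a3r1, the adaptor Slc4a1ap and Slc7a6os, a neighbour of Slc7a6 on the opposite strand.

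The RNA came from the jejunal epithelium of 8 female mice of the strain Sox9-EGFP (C57BL/6J background), in which green fluorescence reports the activity of the Sox9 gene. All 8 libraries came from sorted cells with a low reporter signal, a fraction known to be enriched for crypt-base stem cells, after dying cells (Annexin-V, Sytox-blue), endothelial cells (CD31) and leukocytes (CD45) had been gated out. All animals were raised germ-free, and in each of 4 littermate pairs, A to D, 1 animal stayed germ-free while the other, at 8 to 10 weeks of age, was moved to another animal house, gavaged with fecal slurry of conventionally raised mice of the same colony and studied 2 weeks later. The microbiota and the change of housing therefore cannot be told apart. The comparison asks how the arrival of a microbiota goes with transcript levels in these cells.

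Approximate read totals ran from 6209041 in the pair C germ-free library to 19139685 in the pair D conventionalized library. The pair C germ-free library had a median correlation of 0.792 with its group, against 0.871 to 0.943 for the other libraries. The share of goblet cell markers was 4.97% in the pair A conventionalized library and 0.14 to 0.802% in the other 7. Of 12 enteroendocrine markers 9 were called lower in conventionalized animals (adjusted p under 0.05 in limma), where 3.76% of all genes tested were. The others, Gip, Sct and Pax6, also had lower means there but were not called. The share of the 12 markers ran from 0.853 to 2.22% of the library in conventionalized animals, against 3.65 to 8.63% in germ-free animals. Of 5 proliferation markers 4 were called higher, where 1.16% of all genes tested were. The other, Top2a, had a higher mean too but missed the threshold (adjusted p = 0.051 in limma). The 5 markers held shares of 0.0699 to 0.0855% against 0.00922 to 0.0419%. Stem cell markers held 0.411 to 0.847% against 0.0605 to 0.449%, with 1 of 5 called higher. Enterocyte markers held 0.113 to 0.408% against 0.223 to 0.557%, with 2 of 10 tested called lower. No listed marker of these cell types was at 0 in every library. Leukocyte markers held at most 0.00272% of any library.

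Below, levels are CPM after TMM scaling, a scaling of library totals that discounts extreme genes, given in the order of pairs A, B, C and D. A log2 fold change is conventionalized over germ-free on the scale log2(CPM + 0.5), which understates the change of low genes, and is given with its standard error (SE). Called means an adjusted p under 0.05 in limma, with n = 4 animals per group and Benjamini-Hochberg adjustment over all 10053 genes tested. The fit behind a call did not use the littermate pairing.

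Of the 153 members, 148 reached 10 CPM in at least 4 libraries and were tested. The 5 others were Slc6a20a, Slc30a1, Slc35e4, Slc35e3 and Slc2a13. In conventionalized animals 12 members were called lower, 8.11% of those tested against 3.76% of all genes tested, and 3 were called higher, 2.03% against 1.16%. With the littermate pair as a block in the limma fit, 16 were called higher and 16 lower (10.8% each), against 8.08% higher and 5.02% lower of all genes. In limma with voom and quality weights 6 were higher, 2 of them among the 3 (4.05%, against 5.52% of all genes), and 15 lower (10.1%, against 5.5%). The 12 lower members included the sugar carrier Slc5a4b, the peptide carrier Slc15a1 and the amino acid carriers Slc6a19, Slc6a7 and Slc38a11. Also lower were the ion carriers Slc4a8, Slc26a4 and Slc9a2, the prostaglandin carrier Slco2a1, and Slc16a3 and Slc22a17. The last was Slc35d3, which belongs to the family of nucleotide sugar carriers. The 3 higher ones were Slc16a1, Slc19a2 and Slc30a2. Of the lower members, Slc4a8 and Slc16a3 reached 10 CPM in the 4 germ-free libraries alone, and Slc15a1, Slc26a4, Slc35d3 and Slc22a17 in those and 1 conventionalized library, so they passed the expression minimum through the group where they were high. With a minimum on the mean over all libraries the same 12 were called lower. That fit cannot settle the point, because these members had conventionalized means of 3.72 to 8.92 CPM and reached that minimum too through the germ-free group. Without a filter 9 were called lower, all among the 12, and Slc35d3 and Slc22a17 were not among the 9. In each of the 15 called members the groups did not overlap, so the difference necessarily had 1 sign in all 4 pairs. Both were read from the values that gave the calls and add no support to them. Over all tested members, 14 had every conventionalized value above every germ-free one and 13 every value below, 9.46% and 8.78%, against 9.03% and 5.88% of all genes.

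**Figure D1:**
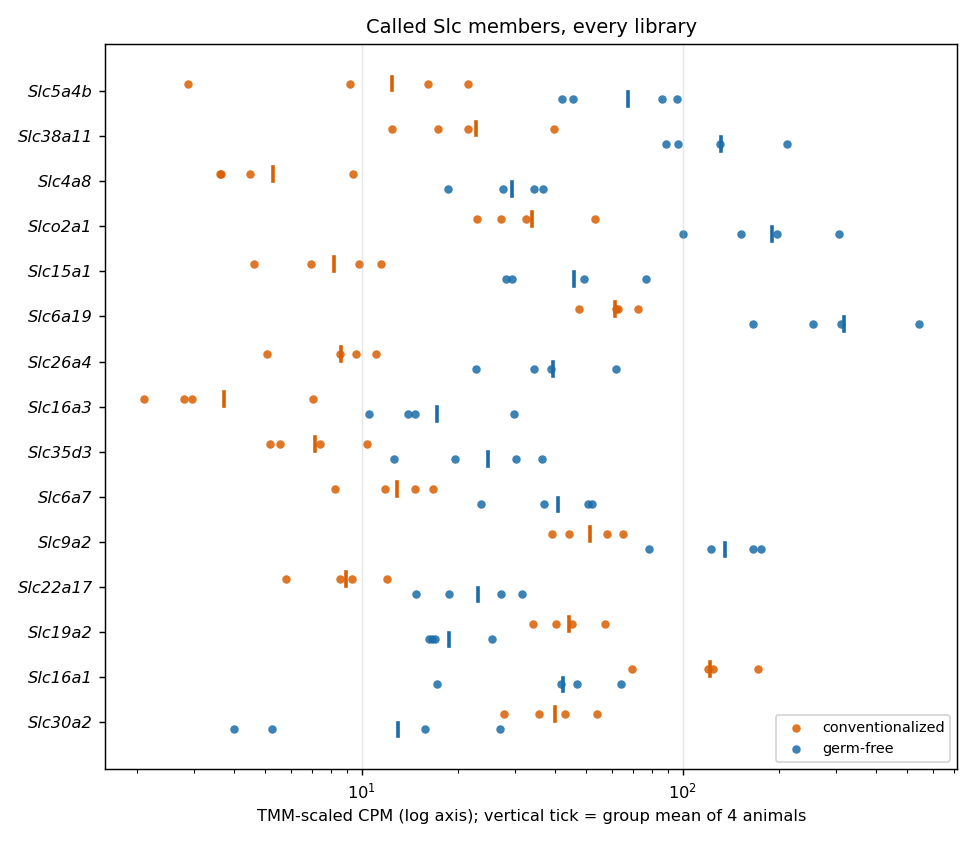
TMM-scaled CPM on a log axis for the 15 called members, 1 point per library, with conventionalized and germ-free libraries in separate colours and a tick at each group mean. The groups are apart in every gene, with Slc6a19 from 47.5 to 72.7 CPM in conventionalized and from 166 to 543 CPM in germ-free animals.

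Stretches just upstream of the transcription start, picked for their widely differing content of CG dinucleotides, are shown for 5 called members, 3 lower and 2 higher. The stretches do not stand for those of the other called members. Each holds the 250 bases before the RefSeq start (GRCm38.p6), read 5′ to 3′ on the strand of the gene, with every CG dinucleotide in capitals. They are chr10:76111019-76111268 on the minus strand for Slc5a4b, chr13:73692637-73692886 on the minus strand for Slc6a19, chr14:121505255-121505504 on the minus strand for Slc15a1, chr1:164248796-164249045 on the plus strand for Slc19a2 and chr3:104638414-104638663 on the plus strand for Slc16a1.
Slc5a4b: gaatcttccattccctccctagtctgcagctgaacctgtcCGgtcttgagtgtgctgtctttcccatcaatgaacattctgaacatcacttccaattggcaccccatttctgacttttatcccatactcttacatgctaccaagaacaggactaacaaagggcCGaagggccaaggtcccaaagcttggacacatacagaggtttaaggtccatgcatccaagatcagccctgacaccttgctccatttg
Slc6a19: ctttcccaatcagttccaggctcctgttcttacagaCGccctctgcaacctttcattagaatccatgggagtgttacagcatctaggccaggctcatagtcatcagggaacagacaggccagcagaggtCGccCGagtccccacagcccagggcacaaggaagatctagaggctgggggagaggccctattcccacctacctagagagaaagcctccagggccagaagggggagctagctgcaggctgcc
Slc15a1: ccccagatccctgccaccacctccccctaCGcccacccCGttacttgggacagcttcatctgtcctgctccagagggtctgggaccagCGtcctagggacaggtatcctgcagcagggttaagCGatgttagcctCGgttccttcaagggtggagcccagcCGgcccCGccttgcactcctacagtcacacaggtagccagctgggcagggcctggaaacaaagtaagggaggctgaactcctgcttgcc
Slc19a2: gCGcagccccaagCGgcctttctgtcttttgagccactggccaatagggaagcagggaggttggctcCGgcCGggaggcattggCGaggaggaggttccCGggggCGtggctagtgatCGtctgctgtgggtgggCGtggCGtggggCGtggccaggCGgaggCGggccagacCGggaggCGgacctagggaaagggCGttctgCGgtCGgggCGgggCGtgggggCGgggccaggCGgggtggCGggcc
Slc16a1: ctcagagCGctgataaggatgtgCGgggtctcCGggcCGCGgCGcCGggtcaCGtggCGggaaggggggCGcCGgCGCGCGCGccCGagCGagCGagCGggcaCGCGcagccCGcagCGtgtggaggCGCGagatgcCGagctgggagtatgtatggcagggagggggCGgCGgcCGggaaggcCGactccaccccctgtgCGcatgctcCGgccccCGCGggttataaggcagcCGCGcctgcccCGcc
For Slc6a19 the RefSeq start lies inside the GENCODE span of the gene, which reaches further upstream to 73704865, so another annotated start precedes this stretch. Slc5a4b held 2 CG dinucleotides, Slc6a19 held 3, Slc15a1 held 7, Slc19a2 held 23 and Slc16a1 held 37. Of the 153 members, 118 had such a stretch in the RefSeq table, with a median of 15 CG dinucleotides, against 6 over its 27025 genes. The 10 lower members with a stretch had a median of 10 and a range from 2 to 29, and the 3 higher members a median of 23 and a range from 20 to 37. The lower members Slc16a3, Slc35d3 and Slc4a8, whose stretches are not shown, had 29, 22 and 16, so the ranges overlapped. The contrast among the stretches shown comes in part from their choice. Some of the counted stretches overlap exons, by 250 bases in Slco2a1, 121 in Slc30a2, 14 in Slc16a3 and 8 in Slc38a11.

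Among the 9 tested sugar carriers, only Slc5a4b was called (11.1%, against 3.76% of all genes called lower). It encodes a mouse relative of the sodium-glucose cotransporter (chromosome 10, 76057494 to 76110961). Its levels were 16.1, 2.88, 21.5 and 9.16 CPM in conventionalized and 86, 42, 96.2 and 45.4 CPM in germ-free animals, a 6.07-fold lower level (log2 fold change -2.6, SE 0.51, adjusted p = 0.0114). Without the pair C germ-free library the call was lost (adjusted p = 0.074). Reads of the near-identical neighbour Slc5a4a may be split between the copies, so its level is uncertain. Slc5a1, the main brush border cotransporter of glucose and galactose, was the most abundant sugar carrier per length, at 68.1 CPM per kilobase over all libraries. It was at 442, 288, 227 and 358 CPM in conventionalized and 335, 246, 136 and 204 CPM in germ-free animals, higher in conventionalized animals in all 4 pairs but with overlapping groups (log2 fold change 0.55, SE 0.35, adjusted p = 0.303). The fructose carrier Slc2a5 was at 17.5 ± 7.27 CPM against 32.6 ± 16 CPM (SD, n = 4 animals each; adjusted p = 0.161 in limma), and the glucose carrier Slc2a1 at 53.1 ± 20.8 against 34.6 ± 8.08 CPM (adjusted p = 0.261). Slc2a2, the basolateral hexose carrier of mature enterocytes, lay under the limit at a mean of 1.87 CPM.

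The peptide carriers were Slc15a1 and Slc15a4. Slc15a1 encodes PEPT1, the proton-coupled uptake carrier of dipeptides and tripeptides in the brush border (chromosome 14, 121459621 to 121505252, minus strand). It was at 11.5, 4.62, 9.8 and 6.96 CPM in conventionalized and 49.3, 28.1, 76.9 and 29.3 CPM in germ-free animals. That is a 5.14-fold lower level (log2 fold change -2.36, SE 0.39, adjusted p = 0.00587), and the call held in all 8 fits that each left out 1 library. Slc15a4, a peptide and histidine carrier of endolysosomes, was at 30.7 ± 7.5 against 31.8 ± 8.05 CPM (SD, n = 4 animals each), with a log2 fold change of -0.04 (SE 0.3) whose sign changed when some single libraries were left out.

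Of 27 amino acid carriers 26 were tested. Of these, 3 were called lower (11.5%, against 3.76% of all genes tested) and 0 higher (against 1.16%). At an unadjusted p under 0.05 in limma, 2 were higher and 5 lower, where all 10053 genes had 1977 higher and 816 lower. With the block, 4 were lower and 1 was higher, against 5.02% and 8.08% of all genes. With voom 3 were lower and 0 higher, against 5.5% and 5.52% of all genes. Slc6a19 encodes B0AT1, the sodium-coupled carrier that takes up most neutral amino acids at the brush border (chromosome 13, 73679745 to 73704865, minus strand). It was at 72.7, 62.9, 62 and 47.5 CPM in conventionalized and 311, 166, 543 and 255 CPM in germ-free animals. The level was 4.77-fold lower (log2 fold change -2.25, SE 0.35, adjusted p = 0.00577). Slc38a11, a little-studied relative of the sodium-coupled neutral amino acid carriers (chromosome 2, 65316430 to 65364034, minus strand), was at 17.3, 12.4, 39.7 and 21.5 CPM against 131, 88.5, 211 and 96.4 CPM. It was 5.86-fold lower (log2 fold change -2.55, SE 0.38, adjusted p = 0.00548). Both calls held in all 8 fits without 1 library. Slc6a7, which encodes a proline carrier, was at 8.27, 11.8, 16.7 and 14.6 CPM against 36.9, 23.6, 52 and 50.8 CPM. It was 3.05-fold lower (log2 fold change -1.61, SE 0.34, adjusted p = 0.0158) and was not called without the pair B conventionalized library (adjusted p = 0.0557).

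No other brush border amino acid carrier named here was called without the block. Slc1a1, the uptake carrier of glutamate and aspartate, was at 143, 63.1, 47.8 and 64.9 CPM in conventionalized and 34.2, 53.4, 12.9 and 44.2 CPM in germ-free animals. It was higher in all 4 pairs with overlapping groups (log2 fold change 1.17, SE 0.44, adjusted p = 0.129 in limma, 0.0417 with the block). Slc1a5, the ASCT2 carrier of glutamine and other neutral amino acids and the third most abundant member per length at 81.7 CPM per kilobase, was at 402 ± 83.8 against 279 ± 52.7 CPM (SD, n = 4 animals each; adjusted p = 0.266). The cystine and cationic amino acid carrier is a dimer of Slc3a1 and Slc7a9. Its heavy chain Slc3a1 had a log2 fold change of -0.81 (SE 0.41, adjusted p = 0.209) and its light chain Slc7a9 one of 1.3 (SE 0.71, adjusted p = 0.233), where the pair A conventionalized library was at 98.5 CPM and the other 3 of its group at 12.3 to 14.9 CPM. Not all of the 10 tested Slc3 and Slc7 genes encode chains of such dimers. Of these 10 genes 0 were called in limma, with or without the block. A positive fold change was seen in 8 of them, where 70.2% of all genes had one. The median of the 10 was 0.43, against 0.32 over all genes. The glutamate carrier Slc1a2, named after its values were seen, had the largest positive fold change of all tested members (2.52, SE 0.78, adjusted p = 0.0803, 0.0735 with the block). It was at 25.6, 47.4, 38.8 and 58.2 CPM in conventionalized and 23.8, 26.8, 1.84 and 1.21 CPM in germ-free animals, so the difference lay in pairs C and D. Slc6a20a, a carrier of proline and other imino acids, was not tested. It was at 83.7 CPM in the pair A conventionalized library and at 5.2 to 9.56 CPM in the other 3 of that group, while the germ-free libraries had 22.3, 5.88, 3.59 and 25.9 CPM.

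Cltrn (also called Tmem27) encodes a partner with which the Slc6a19 protein reaches the cell surface in the kidney. It did not pass the expression minimum. Cltrn was at 2.51, 3.14, 4.47 and 4.85 CPM in conventionalized and 26, 8.64, 7.96 and 6.84 CPM in germ-free animals, so its groups did not overlap. Of the 33 listed sodium pump subunits and other partners of carriers, 24 were tested and 0 were called in limma. With the block 3 were higher, where 8.08% of all genes were. Among the 3 were the chloride channel Cftr (log2 fold change 1.44, SE 0.47, adjusted p = 0.0903, 0.0233 with the block) and the carbonic anhydrase Car9 (1.34, SE 0.43, adjusted p = 0.0876, 0.0201 with the block). Among 18 brush border digestive enzymes, 11 were tested. Against 3.76% of all genes tested, 2 of the 11 were called lower. They were the disaccharidase Sis (log2 fold change -1.89, SE 0.38, adjusted p = 0.0132) and the aminopeptidase Xpnpep2 (-1.8, SE 0.37, adjusted p = 0.0147).

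**Figure D2:**
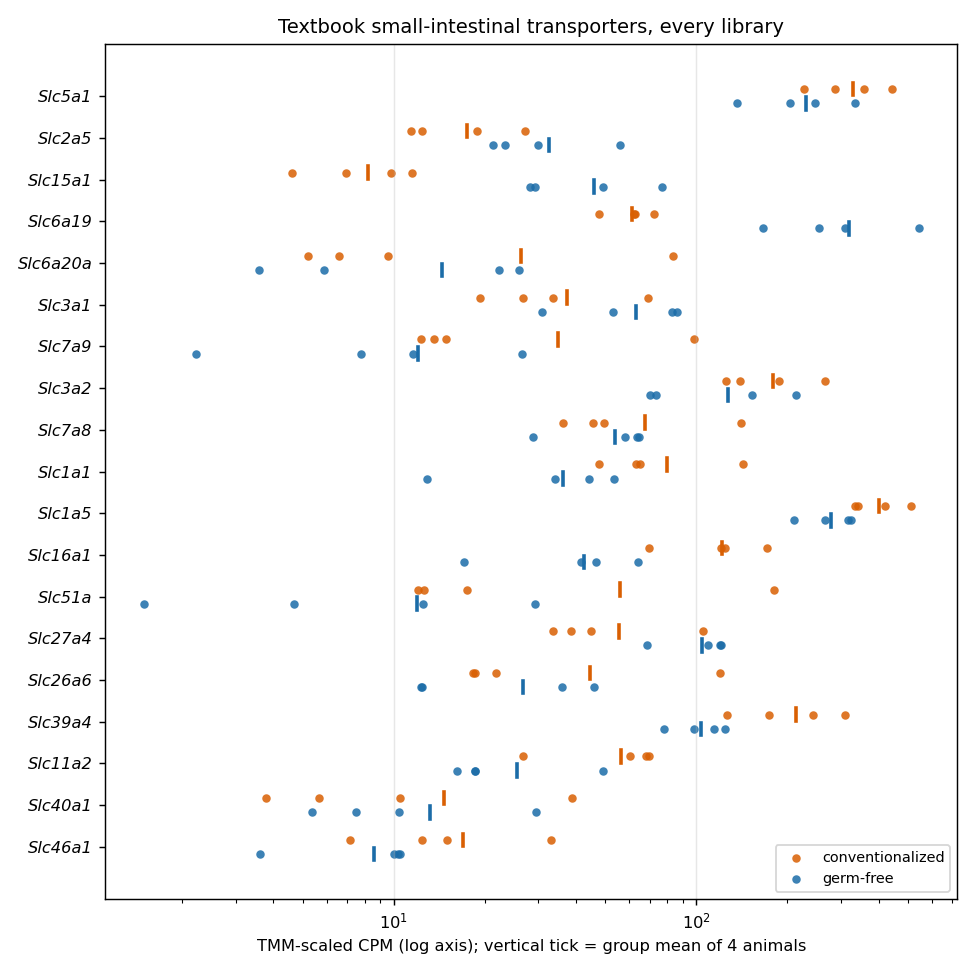
Levels of well-known small-intestinal carriers in each library, in TMM-scaled CPM on a log axis, with the groups in separate colours and a tick at each group mean. Slc6a19 and Slc15a1 lie lower and Slc16a1 higher in conventionalized animals without overlap, while the pair A conventionalized library stands above its group in Slc51a at 181 CPM and in Slc7a9 at 98.5 CPM.

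Of 40 ion carriers 39 were tested, with 3 lower and 1 higher (7.69% and 2.56%, against 3.76% and 1.16% of all genes tested). With the block 3 were lower and 6 higher (7.69% and 15.4%, against 5.02% and 8.08%). Slc4a8 encodes a sodium-driven chloride and bicarbonate exchanger (chromosome 15, 100761747 to 100823968). It was at 4.5, 3.65, 9.37 and 3.62 CPM in conventionalized and 36.8, 18.6, 34.4 and 27.6 CPM in germ-free animals, 5.36-fold lower (log2 fold change -2.42, SE 0.39, adjusted p = 0.00587). Slc26a4 encodes pendrin, an exchanger of chloride, bicarbonate and iodide (chromosome 12, 31519827 to 31559969, minus strand). Its levels of 5.08, 8.56, 9.61 and 11.1 CPM compared with 38.8, 22.7, 62 and 34.5 CPM, a 4.28-fold lower level (log2 fold change -2.1, SE 0.36, adjusted p = 0.0067). Both calls held in all 8 fits without 1 library. Slc9a2, which encodes the sodium-proton exchanger NHE2 (chromosome 1, 40680574 to 40769273), was at 65, 39.1, 44.2 and 57.9 CPM against 122, 78.7, 165 and 175 CPM. It was 2.54-fold lower (log2 fold change -1.35, SE 0.31, adjusted p = 0.0267). It was not called without the conventionalized library of B, C or D or the germ-free one of A or D, left out singly, with adjusted p from 0.00629 to 0.101 over the 8 such fits. Of the exchangers that usually accompany it in the brush border, Slc9a3 and Slc26a3 lay under the limit, at means of 1.38 and 8.44 CPM. Slc26a6 was at 119.8 CPM in the pair A conventionalized library and at 18.2 to 21.8 CPM in the other 3 of its group, against 12.3 to 45.9 CPM in germ-free animals. Its log2 fold change of 0.44 (SE 0.6, adjusted p = 0.628) became -0.23 without that library.

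The zinc carriers are the Slc30 genes, which move zinc out of the cytosol, and the Slc39 genes, which move it in. Of 18 members of both families 17 were tested, 1 was called higher, where 1.16% of all genes were, and 0 lower. A positive fold change was seen in 12, where 70.2% of all genes had one. The median log2 fold change of the 17 was 0.25, against 0.32 over all genes. Slc30a2 encodes ZnT2, which loads zinc into secretory vesicles (chromosome 4, 134343181 to 134354484). It was at 27.7, 43.1, 35.6 and 54.1 CPM in conventionalized and 15.7, 27, 5.26 and 4.01 CPM in germ-free animals, 3.81-fold higher (log2 fold change 1.93, SE 0.5, adjusted p = 0.042). The germ-free libraries of pairs A and B lay far above those of pairs C and D, and the lowest conventionalized value, 27.7 CPM, was close to the highest germ-free one, 27 CPM. Of the 8 fits that left out 1 library, only that without the pair B germ-free one kept the call (adjusted p = 0.00537). Leaving out any of the other 7 singly gave an adjusted p from 0.0609 to 0.135. The call was also lost with voom (adjusted p = 0.0521), with library totals in place of TMM (0.0618) and without the filter on low values (0.0606). Paneth cell markers, whose cells are known for zinc-rich granules, held 1.39, 0.995, 0.238 and 0.325% of the germ-free libraries and 0.604 to 0.909% of the conventionalized ones, with 1 of 7 called higher. Their part in the Slc30a2 result was not tested.

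With the block 5 of the 17 zinc carriers were higher, Slc30a2 and 4 more, where 8.08% of all genes were higher. Slc39a4, which encodes the luminal zinc uptake carrier ZIP4, was at 309, 174, 126 and 242 CPM in conventionalized and 124, 114, 78.3 and 98.1 CPM in germ-free animals. The groups did not overlap (log2 fold change 0.98, SE 0.33, adjusted p = 0.0977, 0.0355 with the block). Slc39a5, a zinc carrier of the basolateral membrane, was at 353, 182, 163 and 226 CPM against 113, 145, 18.3 and 142 CPM (log2 fold change 1.44, SE 0.56, adjusted p = 0.137, 0.0392 with the block). Slc39a11 had a log2 fold change of 1.0 (SE 0.35, adjusted p = 0.108, 0.0282 with the block) and Slc30a5 one of 0.96 (SE 0.39, adjusted p = 0.148, 0.0484 with the block). Slc39a7, a zinc carrier of the endoplasmic reticulum and the second most abundant member per length at 90.7 CPM per kilobase, was at 245 ± 73.3 against 224 ± 32.5 CPM (SD, n = 4 animals each; adjusted p = 0.866).

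**Figure D3:**
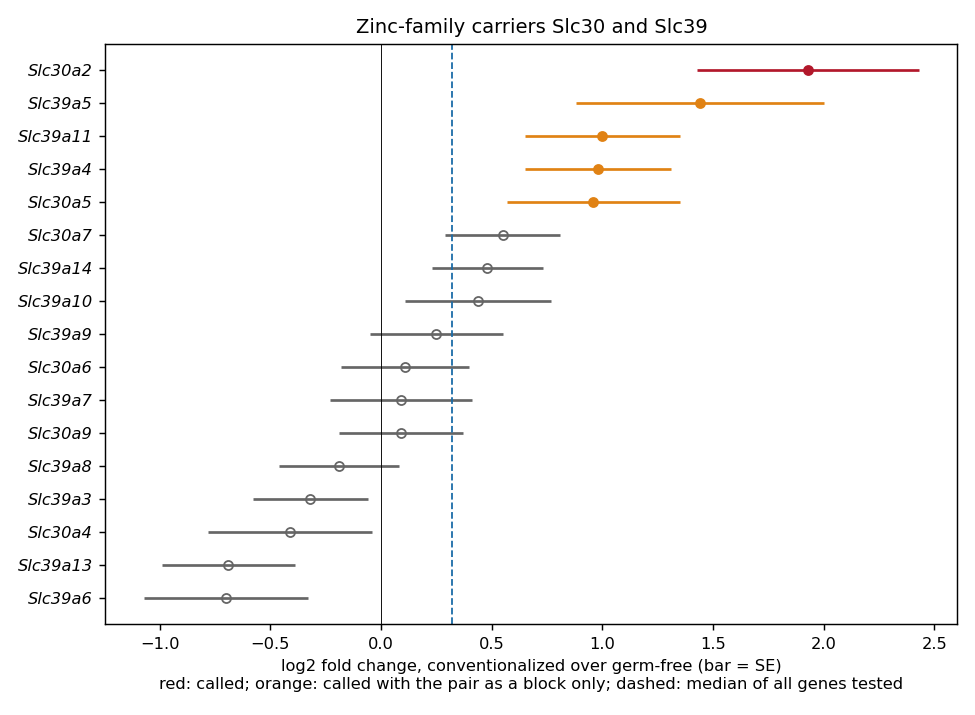
Log2 fold change, conventionalized over germ-free, of the 17 tested Slc30 and Slc39 zinc carriers, with bars of 1 SE, red where called in limma, orange where called only with the littermate block, and a dashed line at the median of all genes tested (0.32). Slc30a2 at 1.93 is the 1 called carrier, and the 4 in orange lie between 0.96 and 1.44.

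Of the iron carriers, Slc11a2, the luminal uptake carrier DMT1, was at 68.1, 60.3, 26.7 and 69.6 CPM in conventionalized and 18.5, 49, 16.2 and 18.5 CPM in germ-free animals. It was higher in all 4 pairs (log2 fold change 1.18, SE 0.4, adjusted p = 0.101, 0.0372 with the block), and without the pair B germ-free library the adjusted p was 0.0228. The iron exporter Slc40a1 was at 38.7 CPM in the pair A conventionalized library and at 3.78 to 10.5 CPM in the other 3 of its group, against 5.35 to 29.6 CPM in the germ-free group (log2 fold change -0.11, SE 0.66), and its sign changed with voom and when some single libraries were left out.

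The 5 lipid carriers had a median log2 fold change of 0.69, against 0.32 over all genes. Of these carriers 1 was called lower (20%, against 3.76% of all genes tested). Slco2a1 encodes the prostaglandin uptake carrier (chromosome 9, 102988712 to 103096002). It was at 27.2, 22.8, 53.1 and 32.4 CPM in conventionalized and 197, 100.4, 307 and 152 CPM in germ-free animals, 5.35-fold lower (log2 fold change -2.42, SE 0.37, adjusted p = 0.00577), and the call held in all 8 fits without 1 library. Endothelial cells are known to express it, and the endothelial marker Pecam1 was also called lower (log2 fold change -2.03, SE 0.45, adjusted p = 0.0218), at 5 ± 3.34 against 19.9 ± 5.69 CPM (SD, n = 4 animals each). The 4 endothelial markers together held 0.000545 to 0.00326% of conventionalized and 0.0031 to 0.00498% of germ-free libraries, and their part in the Slco2a1 result was not tested. Slc27a4, a fatty acid carrier, was at 105, 38.6, 33.7 and 44.9 CPM against 109, 68.7, 119.7 and 121 CPM (log2 fold change -1.03, SE 0.36, adjusted p = 0.111, 0.0477 with the block, 0.0341 without the pair A conventionalized library). Slc27a2, which activates long-chain fatty acids as they enter, was at 213, 283, 217 and 335 CPM in conventionalized and 177, 201, 106 and 172 CPM in germ-free animals. Its groups did not overlap but it missed the threshold (log2 fold change 0.69, SE 0.31, adjusted p = 0.173). Slc51a, a subunit of the basolateral bile acid exporter, was at 181, 12, 12.6 and 17.4 CPM against 29.2, 12.5, 1.49 and 4.66 CPM (log2 fold change 1.77, SE 0.88, adjusted p = 0.199, 0.0288 with the block). Its partner subunit Slc51b and the ileal bile acid carrier Slc10a2 lay under the limit, at means of 4.87 and 0.834 CPM.

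Of the carriers of monocarboxylates such as lactate and short-chain fatty acids, Slc16a1 rose and Slc16a3 fell. Slc16a1 encodes MCT1 (chromosome 3, 104638668 to 104658462). It was at 171, 120.2, 69.7 and 124 CPM in conventionalized and 46.7, 64.1, 17.1 and 41.7 CPM in germ-free animals, 2.99-fold higher (log2 fold change 1.58, SE 0.4, adjusted p = 0.0359). The call was lost without any 1 of the 4 conventionalized libraries or without the germ-free one of A or D, with adjusted p from 0.0082 to 0.116 over the 8 fits, and without the filter on low values (0.0584). Slc16a3 encodes MCT4, which mainly exports lactate (chromosome 11, 120948480 to 120960868). It was at 7.04, 2.1, 2.95 and 2.79 CPM in conventionalized and 13.9, 10.5, 29.7 and 14.7 CPM in germ-free animals, 4.25-fold lower (log2 fold change -2.09, SE 0.48, adjusted p = 0.0245). It was not called without the conventionalized library of B, C or D or the pair A germ-free library, left out singly, with adjusted p from 0.0212 to 0.0834 over 7 such fits. Without the pair C germ-free library it missed the expression minimum and was not tested. Bsg, the chaperone that takes both proteins to the membrane, was at 1220 ± 280.3 against 920.2 ± 329 CPM (SD, n = 4 animals each; log2 fold change 0.45, SE 0.39, adjusted p = 0.436).

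The vitamin carrier Slc19a2 takes up thiamine (chromosome 1, 164249046 to 164265385). It was at 45.2, 57.3, 34.2 and 40.4 CPM in conventionalized and 16.9, 25.4, 16.5 and 16.2 CPM in germ-free animals, 2.33-fold higher (log2 fold change 1.22, SE 0.28, adjusted p = 0.026), and its 4 pair differences lay between 1.03 and 1.39. The call was lost without the conventionalized libraries of pairs A, B or D or the pair A germ-free library, left out singly, with adjusted p from 0.0135 to 0.101 over the 8 fits. It was also lost with library totals (adjusted p = 0.0613) and without the filter (0.105). The folate carrier Slc46a1 was at 16.9 ± 11.2 against 8.61 ± 3.33 CPM (SD, n = 4 animals each; adjusted p = 0.258). The riboflavin carrier Slc52a3 had a log2 fold change of -1.0 (SE 0.32, adjusted p = 0.0909, 0.0464 with the block).

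The remaining called members were Slc35d3 and Slc22a17. Slc35d3, of the family of nucleotide sugar carriers (chromosome 10, 19847916 to 19851459, minus strand), was at 5.57, 5.19, 10.4 and 7.42 CPM in conventionalized and 36.5, 19.5, 30.3 and 12.6 CPM in germ-free animals, 3.17-fold lower (log2 fold change -1.66, SE 0.39, adjusted p = 0.0278). It was not called without the conventionalized libraries of pairs A, B or D or the pair A germ-free library, left out singly (adjusted p from 0.0157 to 0.0992 over the 8 fits). Slc22a17, a receptor for lipocalin-2 (chromosome 14, 54906304 to 54913132, minus strand), was at 5.81, 8.56, 9.34 and 12 CPM against 31.5, 18.7, 27.2 and 14.8 CPM, 2.47-fold lower (log2 fold change -1.3, SE 0.35, adjusted p = 0.0487). Its difference was -2.34 in pair A and -0.29 in pair D, and 2 of the 8 fits without 1 library kept the call. Those that lost it left out any 1 of the conventionalized libraries or the germ-free one of A or C, with adjusted p from 0.0321 to 0.134 over all 8. The other 12 nucleotide sugar carriers were not called, and the 13 together had a median log2 fold change of 0.52.

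Over all genes tested, the block moved the calls from 1.16 to 8.08% higher and from 3.76 to 5.02% lower. Of the 17 members called with the block and not without it, 13 were higher and 4 lower, a split in the direction of all genes. The higher ones with the lowest p were Slco2b1, an organic anion carrier (log2 fold change 1.63, SE 0.47, adjusted p = 0.0666, 0.0238 with the block), Slc35f2, whose substrate is not settled (1.48, SE 0.48, adjusted p = 0.0893, 0.0243 with the block), and Slc39a11. The serotonin carrier Slc6a4 was among the higher ones, at 88, 41.5, 35.2 and 45.7 CPM in conventionalized and 36, 39.9, 10 and 20.9 CPM in germ-free mice (log2 fold change 1.05, SE 0.42, adjusted p = 0.144, 0.0464 with the block). It was named after its values were seen. The lower ones were Slc27a4, Slc52a3, Slc43a2, a carrier of large neutral amino acids (-1.29, SE 0.51, adjusted p = 0.138, 0.0372 with the block), and Slc35g2 (-1.18, SE 0.36, adjusted p = 0.0772, 0.0455 with the block).

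**Figure D4:**
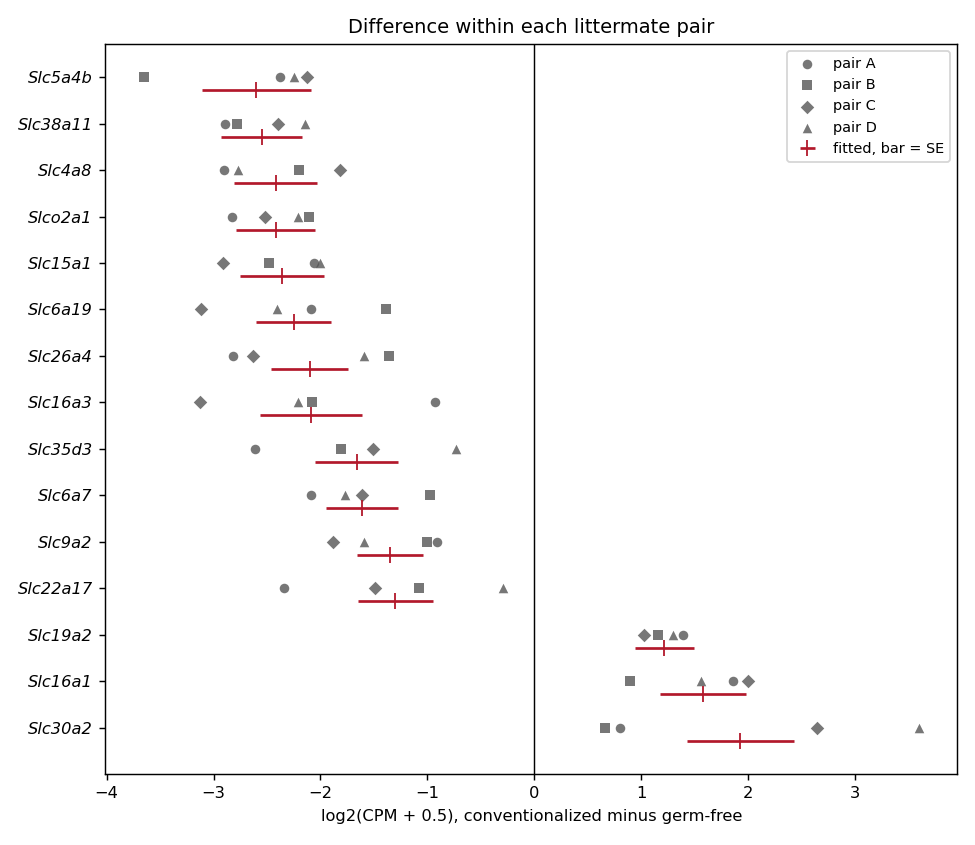
Difference in log2(CPM + 0.5) between the conventionalized and the germ-free animal of each littermate pair for the called members, 1 symbol per pair, with the fitted fold change and a bar of 1 SE in red. All 4 pairs lie on 1 side of 0 for each gene, as they must where the groups do not overlap. The differences run from -1.39 to -3.12 for Slc6a19 and from 0.66 to 3.6 for Slc30a2.

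No substrate class was tested as a whole. The median log2 fold change was 0.17 over all 148 tested members and 0.32 over all genes tested. A positive value was seen in 90 members and a negative one in 58, so 60.8% were positive, against 70.2% of all genes tested. Class medians were 0.1 for 9 sugar carriers, -1.2 for 2 peptide carriers, 0.21 for 26 amino acid carriers, 0.11 for 39 ion carriers, 0.69 for 5 lipid carriers, 0.52 for 13 nucleotide sugar carriers and 0.14 for 51 others. With library totals in place of TMM factors the median of all genes moved from 0.32 to 0.09, and the medians of sugar, amino acid, ion and other carriers changed sign, so only differences relative to all genes are read from them. The summed level of the amino acid carriers was 2226, 1726, 1464 and 1867 CPM in conventionalized and 2209, 1793, 2186 and 1672 CPM in germ-free animals, and the ranges overlapped. Nucleotide sugar carriers summed to 1130 ± 296 against 872 ± 124 CPM (SD, n = 4 animals each). Ion carriers summed to 2217 ± 538 against 1955 ± 145 CPM and sugar carriers to 565 ± 139 against 517 ± 117 CPM (SD, n = 4 animals each). Per length, the 5 most abundant members were the scaffold Slc9a3r1 at 116 CPM per kilobase, Slc39a7, Slc1a5, Slc39a5 at 75.5 and Slc35a4 at 70, none of them called.

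**Figure D5:**
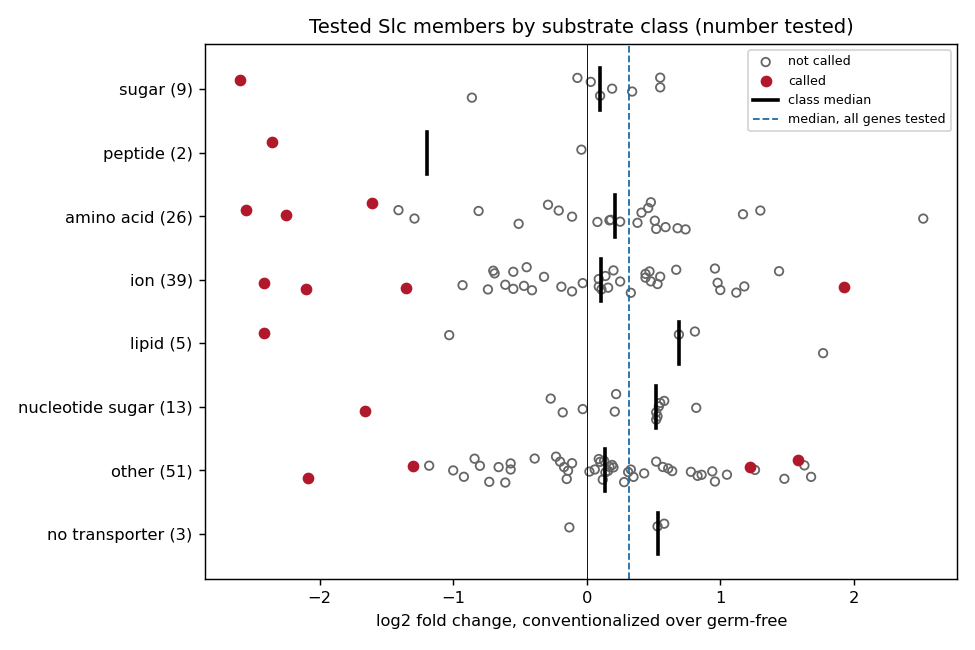
Log2 fold change, conventionalized over germ-free, of each of the 148 tested members by substrate class, with called members filled, a bar at each class median and a dashed line at the median of all genes tested. The sugar, peptide, amino acid, ion, lipid and nucleotide sugar classes each hold at least 1 called lower member, the called lower members lie from -2.6 to -1.3 and the 3 called higher ones from 1.22 to 1.93.

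Of the 12 lower members, the highest germ-free value was in pair C in 8, in pair A in 3 and in pair D in 1, and the lowest in pair B in 10. Their highest conventionalized value was in pair C in 6, in pair A in 4 and in pair D in 2. In all 3 higher members the highest germ-free value was in pair B. These counts were not compared with those of all genes. Across the germ-free libraries the enteroendocrine markers held 8.63, 4, 5.16 and 3.65%, and the mean was 5.36 ± 2.27% against 1.49 ± 0.63% (SD, n = 4 animals each) in conventionalized animals, a direction shared with the 12 lower members. Of the 10 tested enterocyte markers 5 had a negative and 5 a positive fold change, with a median of -0.11, and Sis and Krt20 were the 2 called lower (Krt20 log2 fold change -1.82, SE 0.44, adjusted p = 0.0317). Of the proliferation markers 4 of 5 were called in the direction of the 3 higher members. The part of these cell types in the results on carriers was not tested, and in sorted bulk RNA fewer cells of a type and less RNA per cell cannot be told apart. Without both libraries that stood apart, the conventionalized one of pair A and the germ-free one of pair C, 145 members were tested. Of these, 3 were called higher, the same 3, and 17 lower, of which 11 were among the 12. Over the 10076 genes tested in that fit 263 were higher and 498 lower.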

How the data were processed

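The members and gene lists were chosen with earlier results of these data known. Per the labels' protocols, SMARTer and Nextera XT kits were used on 10 ng of RNA per library. Trimmomatic 0.36, DESeq2 1.12.4, STAR 2.4.2a, R 3.3.1 and the build mm10 appear in the submitters' processing notes. The authors' series text names Salmon and edgeR. What the authors deposited is a normalized signal, not raw counts: 99.86% of values of genes with 1 annotated transcript were whole multiples of 1 step per library (tolerance 0.02), against 28.37% of genes with several, and 147 of the 153 members have several. Whole reads could therefore not be recovered, and no count test was run. Gene symbols and positions came from GENCODE M21 (GRCm38), which matched 48058 of 48440 genes.

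In R 4.3.3 the signal was converted to CPM by TMM (trims of 30 and 5%). Testing in limma 3.58.1 used log2(CPM + 0.5) of genes that reached 10 CPM in 4 or more libraries (trend and robust empirical Bayes, two-sided, condition as the only term). Fits that left out libraries asked for 10 CPM in 3 or more libraries, so their expression minimum was not the same. The procedure was tested on simulated data. Labels give the littermate pairs, so the libraries are paired by design. The main fit did not use the pairing, which entered only as a block in an alternative fit. Correlations of littermates' deviations from the group means were 0.142, -0.156, 0.307 and -0.00634 for pairs A to D. Members named were all called members, the 3 with the lowest p in each class, textbook intestinal carriers, those nearest the limit, members that are no transporters, and the 3 with the lowest p in each direction among those called with the block alone. Substrate classes were assigned from general knowledge. Sequences are from RefSeq. Alternatives were the littermate block, library totals, upper-quartile scaling, no filter, a filter on the mean, a pseudocount of 2, voom with quality weights, and leaving out libraries.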

Additional observations from a re-analysis of the deposited data

Results flagged for a closer look

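Levels of the named members and shares of the lists were screened for single libraries that lie far from the 3 others of their group, by the gap to the nearest one relative to the range of the group (Dixon's critical value). Of 116 groups 16 passed, where chance passes about 1 in 20. In 10 of them the conventionalized library of pair A was high: Slc51a at 181 CPM (others 12 to 17.4), Slc7a8 at 140.2 CPM (36.2 to 49.6), Slc26a6 at 119.8 CPM (18.2 to 21.8), Slc27a4 at 105 CPM (33.7 to 44.9), Slc7a9 at 98.5 CPM (12.3 to 14.9), Slc43a2 at 96 CPM (26.3 to 31.9), Slc6a20a at 83.7 CPM (5.2 to 9.56) and Slco2b1 at 80.3 CPM (27.8 to 32), with the brush border digestive enzymes at 0.153% of the library (0.0561 to 0.0675%) and the goblet cell markers at 4.97% (0.14 to 0.584%). None of these 8 carriers was called in limma on log2(CPM + 0.5) without the littermate block.

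In the pair B germ-free library, Slc19a2 was high at 25.4 CPM (others 16.2 to 16.9) and Slc11a2 at 49 CPM (16.2 to 18.5). In the pair A germ-free library, Slc9a3r1 was high at 297 CPM (204 to 218) and Slc30a1 at 19 CPM (5.82 to 7.85). Slc46a1 was low in the pair C germ-free library, at 3.62 CPM (9.99 to 10.5). Slc4a8 was high in the pair C conventionalized library, at 9.37 CPM (3.62 to 4.5), still under the lowest germ-free value of 18.6 CPM.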

How the results depend on the processing

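Of 15 called members, 6 were called in every fit without 1 library: Slc38a11, Slc4a8, Slco2a1, Slc15a1, Slc6a19 and Slc26a4. The number of members higher was 3, and it was 16 with the littermate pair as a replicate block, 6 with voom, 0 without a filter on low values, and 0 to 8 when 1 library was left out. Members lower numbered 12 and ranged from 7 to 13 when 1 library was left out. Without the pair B conventionalized library 7 were lower and 0 higher, where 179 and 15 of 10303 genes were. Without the pair B germ-free library 12 were lower and 8 higher, where 492 and 461 of 10327 genes were. Calls over all genes moved as well. Of 10053 genes, 117 were higher and 378 lower in the main fit, 812 and 505 with the block, and 555 and 553 with voom. With no filter 45 of 38312 genes were higher and 311 lower. Over the fits without 1 library, 15 to 461 genes were higher and 179 to 492 lower. Without a filter Slc9a2, Slc35d3 and Slc22a17 also lost their calls (adjusted p = 0.0639, 0.0586 and 0.143 in limma), and library totals ended those of Slc19a2 and Slc30a2. With library totals in place of TMM the class medians were -0.16 for sugar, -0.02 for amino acid, -0.13 for ion, -0.08 for other carriers and -0.07 for all members. Leaving out 1 library gave medians from -0.1 to 0.27 for ion carriers and from 0.02 to 0.28 for all members. The nucleotide sugar median was 0.19 without the 2 libraries that stood apart.

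Directions turned in 4 named members, none of them called. Slc15a4 ranged from -0.25 to 0.07 without 1 library and was at 0.15 without the 2 that stood apart. Slc7a8 was at -0.05 with library totals, -0.27 to 0.41 without 1 library and -0.51 without the 2. Slc26a6 ranged from -0.23 (without the pair A conventionalized library) to 0.78 without 1 library and was at -0.48 without the 2. Slc40a1 was at 0.51 with voom, and ranged from -0.78 to 0.37 without 1 library. The cause was not tested. Of the values of the 44 named members tested, 606 kept direction and side of the threshold, 48 lost the threshold, 32 gained it and 15 turned. The depth of single genes is not known from these values, so no counting interval is given.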
